A study of Mus musculus with 6 samples.

Results

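The 52 genes described here encode the digestive enzymes of the lysosome, the membrane proteins around them and the proton pump that acidifies the organelle. They were taken by gene symbol from a fixed list, and all 52 were found, each at a single row, among the 31883 genes of the deposited table. The list holds 16 proton pump subunits, 10 cathepsins with legumain, 12 other hydrolases, 3 luminal cofactors, 8 membrane proteins and 3 transcription factors. RNA came from bone marrow-derived macrophages of C57Bl/6 mice, with 3 libraries whose labels give a global CD22 knockout and 3 whose labels give wild type. All 6 cultures were grown with medium conditioned by L929 cells at 25%, which supplies macrophage growth factor, and all received IL-4 at 20 ng/mL for 48 hours. Nothing in the labels ties a library to its own animal, so every p-value here reflects the scatter among 6 libraries, and that scatter may be technical. Age, sex and the deleted allele were not given in the sources used here.

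Lysosomes are the end point of endocytosis, phagocytosis and autophagy. Their hydrolases work at acid pH, which the vacuolar proton ATPase maintains by coupling ATP hydrolysis in its cytosolic V1 sector to proton transport through its membrane V0 sector. The transcription factors TFEB, TFE3 and MITF bind a CACGTG-type element shared by many lysosomal promoters. Macrophages are rich in lysosomes, and several cathepsins also act in antigen processing or outside the cell. The series asks how loss of CD22, a sialic acid-binding receptor, alters the transcriptome of IL-4 macrophages, and its title names endocytosis among its themes.

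The targeted gene did not separate the groups: Cd22 had 8.85, 8.21 and 9.53 FPKM in the libraries labelled CD22 knockout and 8.95, 9.36 and 10.6 FPKM in wild type libraries, with overlapping ranges. Gene-level values do not separate exons, so this does not check the deletion, and every direction below goes by the label of the library. FPKM are read fragments scaled for transcript length and for the number of mapped fragments. Depth per library is unknown, because no counts were given. Transcripts of the mitochondrial genome made up 17.2%, 20.4% and 15.6% of summed FPKM in knockout-labelled libraries and 11.8%, 11.7% and 16.5% in wild type libraries. All 10 macrophage markers were above the filter used for testing, with Adgre1 at 352 to 405 FPKM in knockout-labelled libraries and 331 to 389 FPKM in wild type libraries. Summed adipocyte markers reached 3.79 to 13.1 FPKM in knockout-labelled libraries and 14.1 to 48.1 FPKM in wild type libraries, and the groups did not overlap. Summed skeletal muscle markers stood at 6.35 FPKM in wild type library 1 and at no more than 1.36 FPKM elsewhere, and summed epididymis markers at 7.59 FPKM in wild type library 2 and at no more than 0.048 FPKM elsewhere. Their part in the results was not tested. In whole cultures, fewer cells of a type and less RNA per cell cannot be told apart.

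Lysosome genes were among the most abundant transcripts of these macrophages. Together the 52 genes accounted for 7.79%, 7.38% and 8.50% of all FPKM in knockout-labelled libraries, against 8.25%, 8.16% and 8.27% in wild type libraries, so the groups overlapped. With mitochondrially encoded transcripts left out of the total, the shares were 9.42%, 9.28% and 10.1% in knockout-labelled libraries and 9.35%, 9.24% and 9.91% in wild type libraries. Psap, the precursor of the saposins that help hydrolases reach their lipid substrates, was the second most abundant gene of the table by mean FPKM. Of the 100 genes with the highest mean FPKM, 11 were on the list, and 28 of the 52 averaged at least 100 FPKM, a level that 386 of the 31883 genes reached. The lowest were the transcription factor gene Tfeb and Mcoln1, the calcium channel of the lysosomal membrane, both below 10 FPKM.

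**Figure D1:**
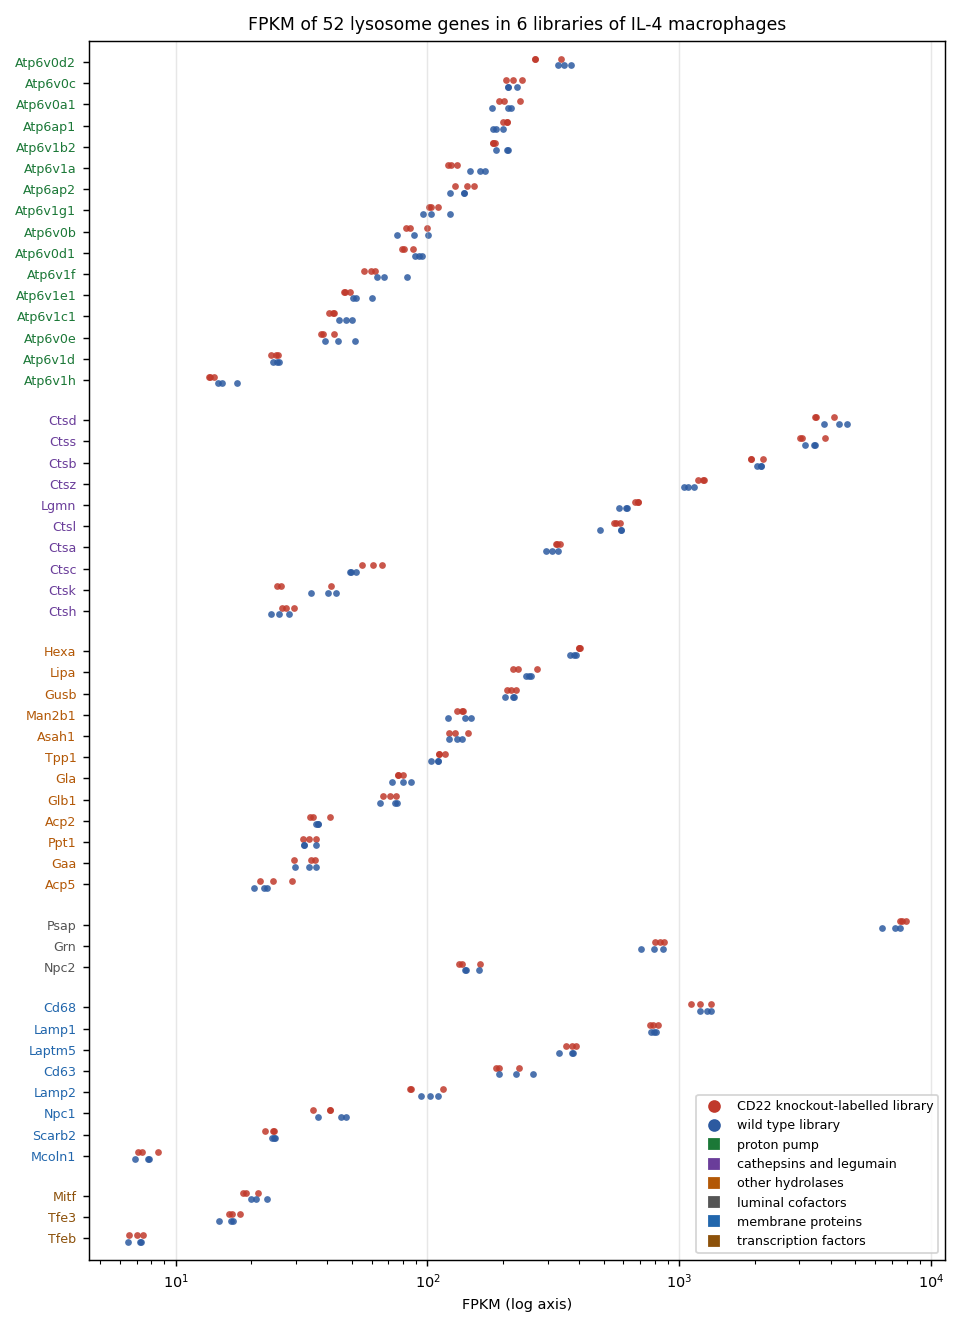
FPKM of the 52 lysosome genes on a log axis, with 1 point per library, knockout-labelled libraries drawn above wild type libraries in each row and gene names coloured by class. Psap, Ctsd, Ctss, Ctsb, Cd68 and Ctsz lie above 1000 FPKM on average, and Tfeb and Mcoln1 lie below 10 FPKM. Differences between the groups are small beside the differences between genes.

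Whether any lysosome gene differed between the genotypes was tested with limma on log2(FPKM + 1), with p-values adjusted over the 10777 genes that reached 1 FPKM in 3 or more libraries. None of the 52 genes was called at an adjusted p below 0.05, where 0.408% of all genes tested were, 0.148% higher and 0.260% lower in knockout-labelled libraries. All 52 passed the filter on low values in full, so none was dropped. At an unadjusted p below 0.05 there were 5 of the 52 (1 higher and 4 lower), against 11.0% of all genes tested (4.57% higher and 6.39% lower). The groups did not overlap in 13 of the 52, 6 higher and 7 lower in knockout-labelled libraries, against 17.1% of all genes tested (6.43% higher and 10.7% lower). The share of the 52 with an unadjusted p below 0.05 was thus close to the background, and the share whose groups did not overlap was above it. Of the 13 without overlap, 8 were among the 16 pump genes. The others were 3 of 10 cathepsins with legumain and 2 of 12 other hydrolases. Log2 fold changes ran only from -0.37 for Ctsk to 0.26 for Ctsc, with a median of -0.0061 beside -0.024 for all genes tested.

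**Figure D2:**
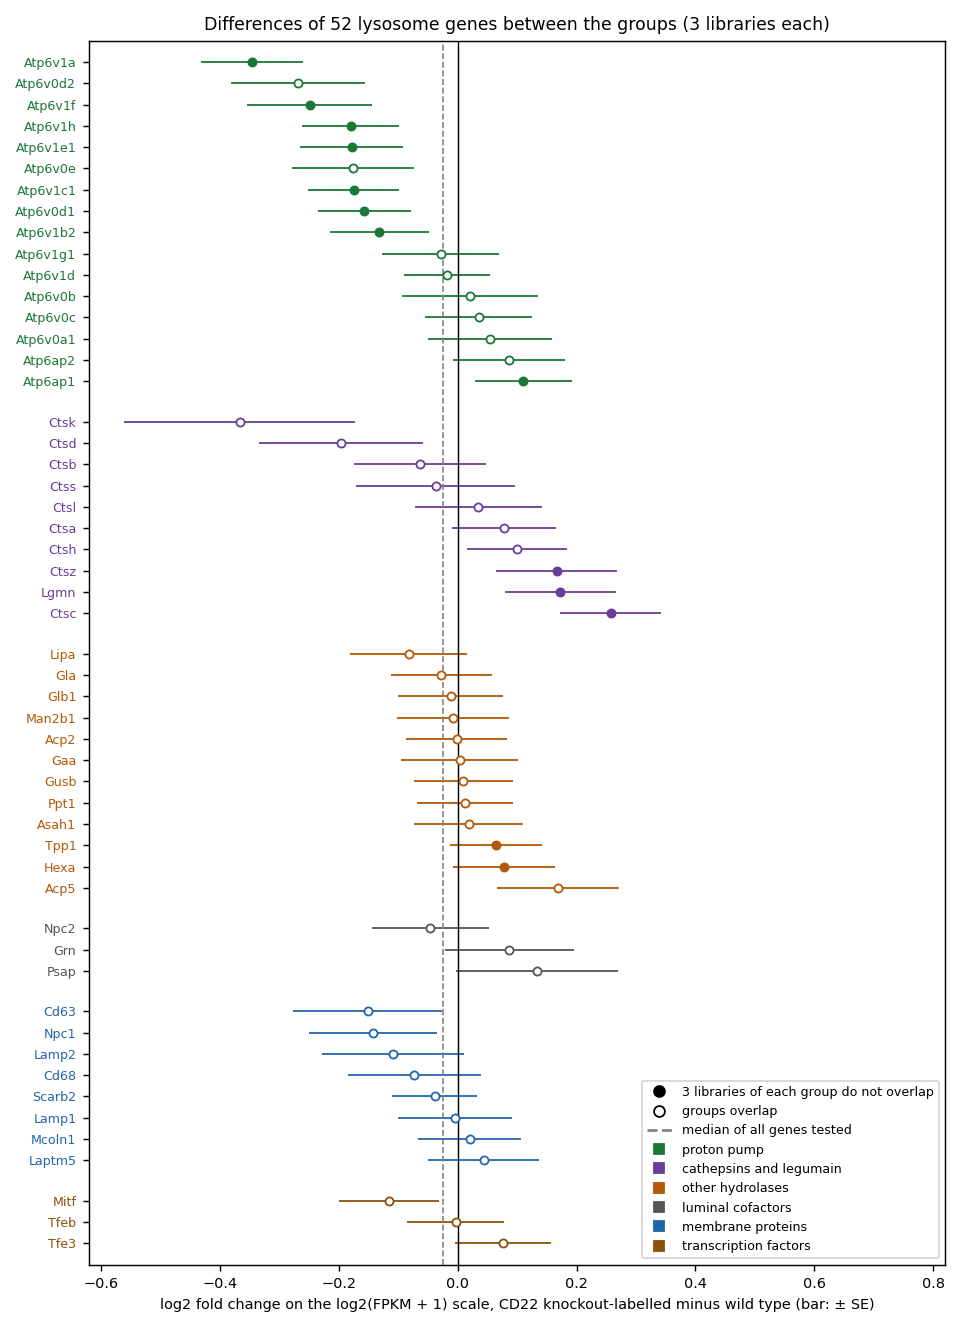
Log2 fold change of each of the 52 genes on the log2(FPKM + 1) scale, knockout-labelled minus wild type, with bars for the standard error, grouped and coloured by class. Filled points mark the 13 genes whose groups did not overlap, and the dashed line marks the median of all genes tested at -0.024.

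All 7 genes that were lower without overlap encode proton pump subunits. Of the 16 pump genes, 11 had a log2 fold change below 0, as did 57.9% of all genes tested, and 7 lay lower without overlap, which was the case for 10.7% of all genes tested. Their median log2 fold change was -0.14. With libraries scaled to the same FPKM sum, 14 of the 16 and 74.1% of all genes tested were below 0. Atp6v1a (ENSMUSG00000052459), which encodes the catalytic A subunit of V1, occupies chr16:44085402-44139705 (GRCm38, minus strand). Its FPKM was 121, 124 and 130.5 in knockout-labelled libraries and 161, 169 and 147 in wild type libraries. Each knockout-labelled library was below each wild type library. The means were 125 ± 5.01 and 159 ± 11.2 FPKM (SD, n = 3 each), a log2 fold change of -0.35 (SE 0.085, limma, unadjusted p = 0.0020, adjusted p = 0.162). Over the alternatives run, its adjusted p ranged from 0.0962 to 0.878. In the authors' deposited table the q of Atp6v1a was 0.00856, and the gene was not marked significant there.

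The separation was mostly in the cytosolic V1 sector. All 8 V1 genes had a negative log2 fold change, with a median of -0.18, and 6 of them did not overlap between the groups. This grouping by sector was made after the values were seen. Atp6v1f, a subunit of the central rotor, had 59.9, 62.1 and 55.7 FPKM in knockout-labelled libraries and 62.8, 83.0 and 67.4 FPKM in wild type libraries (log2 fold change -0.25, SE 0.105, limma, adjusted p = 0.422). Wild type library 2 lay well above the other wild type libraries. Atp6v1c1, which links the rotor housing to the membrane sector, had 40.5, 42.6 and 42.0 FPKM in knockout-labelled libraries and 44.3, 50.0 and 47.3 FPKM in wild type libraries (log2 fold change -0.17, SE 0.0769, limma, adjusted p = 0.433). Its groups did not overlap, but the nearest values, 42.6 and 44.3 FPKM, lay close together. Atp6v1h, the regulatory H subunit, Atp6v1e1 of the peripheral stalk and Atp6v1b2, the nucleotide-binding B subunit, had log2 fold changes of -0.18, -0.18 and -0.13, all with adjusted p-values above 0.4. Atp6v1d of the rotor and Atp6v1g1 of the peripheral stalk were close to level, at -0.018 and -0.029.

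Wild type library 2 held the highest FPKM of all 6 libraries for each of the 8 V1 genes. Within its group it was the highest for 13 of the 16 pump genes and for 35.3% of all genes tested. Summed V1 FPKM was 593, 606 and 601 in knockout-labelled libraries and 663, 738 and 642 in wild type libraries. Summed V1 values did not overlap between the groups. Over all 16 pump genes the sums did overlap, at 1822 to 1987 FPKM in knockout-labelled libraries and 1940 to 2089 FPKM in wild type libraries. Summed V0 FPKM overlapped as well, at 865 to 1033 and 972 to 1024 in the same order. Without wild type libraries 1 and 2, the median log2 fold change of V1 genes was -0.087 and 6 of 8 were negative, and without wild type replicate 2 alone it was -0.11 with 7 of 8 negative. Under median centring or quantile normalization 7 of the 8 were negative.

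Genes of the membrane V0 sector went both ways, with 3 of 6 above 0 and a median of -0.068. The d subunit, which joins the proton ring to the rotor, has a ubiquitous form, Atp6v0d1, and a form known from osteoclasts and macrophages, Atp6v0d2. Atp6v0d2 was the more abundant of the pair in all 6 libraries, at 268, 266 and 340.5 FPKM in knockout-labelled libraries and 348, 372 and 329 FPKM in wild type libraries. Knockout-labelled library 3 lay among the wild type values, and the other knockout-labelled libraries lay below them (log2 fold change -0.27, SE 0.113, limma, adjusted p = 0.413). Atp6v0d1 had 87.4, 79.0 and 80.9 FPKM in knockout-labelled libraries and 92.3, 94.7 and 88.9 FPKM in wild type libraries, without overlap (log2 fold change -0.16, SE 0.0786, limma, adjusted p = 0.497). Per library, the ratio of Atp6v0d2 to Atp6v0d1 was 3.55 ± 0.59 in knockout-labelled libraries and 3.80 ± 0.11 in wild type libraries (SD, n = 3 each). Atp6v0e was at 39.6 ± 2.56 and 45.1 ± 6.20 FPKM, in knockout-labelled and wild type libraries in that order. The proton ring genes Atp6v0b and Atp6v0c and the a-subunit gene Atp6v0a1 had log2 fold changes of 0.021, 0.035 and 0.054.

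Both accessory subunits had means on the other side. Atp6ap1, which assists pump assembly, had 207, 207 and 199.6 FPKM in knockout-labelled libraries and 182, 188 and 199 FPKM in wild type libraries, separated by less than 1 FPKM between the nearest values (log2 fold change 0.11, SE 0.0809, limma, adjusted p = 0.664). Atp6ap2, the prorenin receptor, had a log2 fold change of 0.086. Of 9 pump subunit genes outside the 52, only Tcirg1 and Atp6v0a2 passed the filter, and 0 were called. Tcirg1, the a3 subunit of the osteoclast pump, had 162, 171 and 209 FPKM in knockout-labelled libraries and 138, 144 and 171 FPKM in wild type libraries (log2 fold change 0.25, SE 0.117, limma, adjusted p = 0.467). It was near the level of Atp6v0a1 and far above that of Atp6v0a2. Wild type library 3 lay above knockout-labelled libraries 1 and 2, so the groups overlapped.

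**Figure D3:**
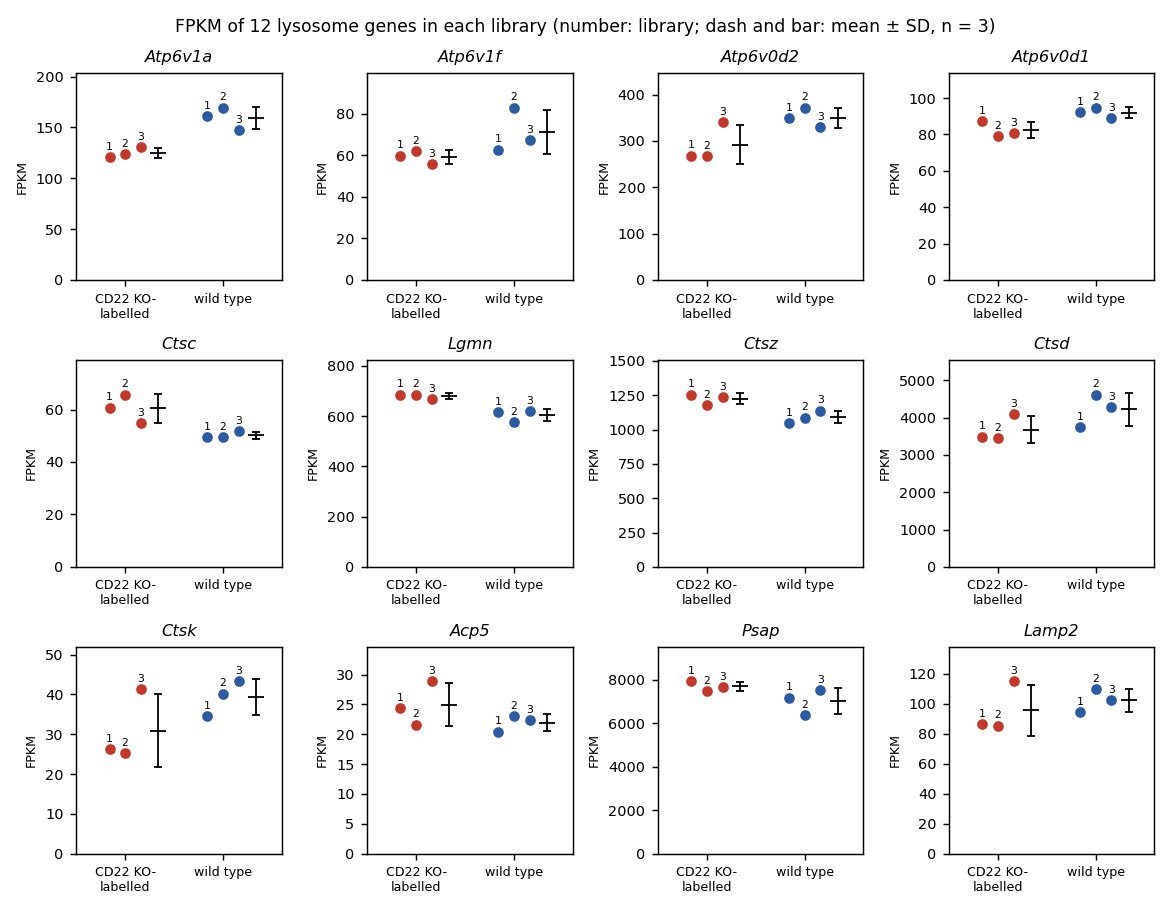
FPKM of 12 lysosome genes in each library, knockout-labelled libraries left and wild type libraries right, numbered by library, with the mean and SD of 3 libraries and axes starting at 0. Atp6v1a, Atp6v1f and Atp6v0d1 lie lower and Ctsc, Lgmn and Ctsz lie higher in the knockout-labelled libraries without overlap. Knockout-labelled library 3 lies within the wild type range for Atp6v0d2 and Ctsk and above it for Lamp2.

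The most abundant cathepsin genes overlapped between the groups, and the 3 genes of this class that did not overlap were all higher in knockout-labelled libraries. Ctsd, the aspartic protease, had 3491, 3454 and 4099 FPKM in knockout-labelled libraries and 3749, 4619.6 and 4293 FPKM in wild type libraries (log2 fold change -0.20, SE 0.137, limma, adjusted p = 0.649). Knockout-labelled library 3 lay between the wild type values. Ctss, the elastase-like protease that trims the invariant chain of class II molecules, and Ctsb averaged 3286 ± 443 and 2001 ± 129 FPKM in knockout-labelled libraries and 3355 ± 162 and 2087 ± 46.3 FPKM in wild type libraries. For neither was the difference larger than the spread between libraries.

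Ctsc (ENSMUSG00000030560, chr7:88278085-88310888, GRCm38, plus strand) encodes dipeptidyl peptidase I, which activates granule serine proteases. Ctsc was the only gene of its class with an unadjusted limma p below 0.05. It had 60.7, 65.7 and 54.7 FPKM in knockout-labelled libraries and 49.4, 49.5 and 51.8 FPKM in wild type libraries. All 3 knockout-labelled libraries were above all 3 wild type libraries, with means of 60.4 ± 5.49 and 50.2 ± 1.37 FPKM in that order (log2 fold change 0.26, SE 0.0851, limma, unadjusted p = 0.0119, adjusted p = 0.297). Lgmn, the asparaginyl endopeptidase that matures several cathepsins, had 686, 686 and 668 FPKM in knockout-labelled libraries and 615, 576 and 619 FPKM in wild type libraries (log2 fold change 0.17, SE 0.093, limma, adjusted p = 0.533). Ctsz, a carboxypeptidase, had 1255, 1181 and 1238 FPKM in knockout-labelled libraries and 1047, 1087 and 1139 FPKM in wild type libraries (log2 fold change 0.17, SE 0.102, limma, adjusted p = 0.584). Both were higher without overlap, and 6.43% of all genes tested were. In the authors' deposited table, by the authors' own test, the p of Ctsc, Lgmn and Ctsz was 0.000501, 0.00345 and 0.00806. Their q there was 0.0548, 0.198 and 0.319, and none was marked significant. The lower abundance Ctsh and the abundant Ctsa and Ctsl had log2 fold changes of 0.10, 0.078 and 0.035, with overlapping groups. The class of 10 had a median of 0.056, with 6 above 0 and 4 below.

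Ctsk (ENSMUSG00000028111), the collagen-degrading cathepsin of osteoclasts, had the most negative log2 fold change of the 52 genes and the widest spread in knockout-labelled libraries. Its FPKM was 26.2, 25.2 and 41.4 in knockout-labelled libraries and 34.5, 40.2 and 43.3 in wild type libraries, so library 3 lay within the wild type range. Its log2 fold change was -0.37 (SE 0.195, limma, adjusted p = 0.549). Without CD22_KO replicate 3 it was -0.59 (limma, adjusted p = 0.0282), the 1 setting in which a gene of the 52 was called. Ctsk lies 17423 bases from Ctss on chromosome 3 in GRCm38. Ctss was also highest in knockout-labelled library 3, at 3797 FPKM, where libraries 1 and 2 of that group had 3004 and 3056 FPKM. That library was the highest of its group for 7 of the 10 genes of this class, so the pattern was not particular to these neighbours.

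Other osteoclast-linked genes had log2 fold changes on both sides of 0. Acp5, tartrate-resistant acid phosphatase, had 24.4, 21.6 and 28.8 FPKM in knockout-labelled libraries and 20.5, 23.1 and 22.4 FPKM in wild type libraries (log2 fold change 0.17, SE 0.103, limma, adjusted p = 0.585). Without CD22_KO replicate 3 the log2 fold change of Acp5 was 0.063, and without CD22_KO replicate 2 it was 0.26. Of 12 osteoclast markers, which include Acp5, Ctsk and Atp6v0d2, 10 were tested, 0 were called, and 4 had log2 fold changes above 0 and 6 below. The calcitonin receptor gene Calcr was listed at or near 0 throughout, and Oscar stayed at or below 0.13 FPKM in knockout-labelled libraries and was listed at 0 in wild type libraries. Mmp9, a matrix protease of macrophages and osteoclasts, had 29.0, 18.7 and 40.6 FPKM in knockout-labelled libraries and 88.9, 57.8 and 79.4 FPKM in wild type libraries (log2 fold change -1.37, SE 0.329, limma, adjusted p = 0.274). Summed osteoclast markers were 444 to 599 FPKM in knockout-labelled libraries and 593 to 615 FPKM in wild type libraries. The largest part of that sum was Atp6v0d2, averaging 292 ± 42.2 and 350 ± 21.1 FPKM in the same order. The sum therefore does not stand for the markers as a set.

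The other hydrolases lay close to level between the groups. The 12 genes had log2 fold changes between -0.082 for Lipa, which frees cholesterol from its esters, and 0.17 for Acp5, with a median of 0.0064 and no unadjusted p below 0.05. Of these, 5 lay below 0, and 9 did so with libraries scaled to the same FPKM sum. Hexa, the alpha subunit of beta-hexosaminidase, was the most abundant, at 401, 399 and 404 FPKM in knockout-labelled libraries and 383, 369 and 389 FPKM in wild type libraries. Hexa did not overlap between the groups, and its difference was small (log2 fold change 0.078, SE 0.0855, limma, adjusted p = 0.793). Tpp1, which removes tripeptides, had 111, 111 and 117 FPKM in knockout-labelled libraries and 109.8, 104 and 111 FPKM in wild type libraries (log2 fold change 0.065, SE 0.077, limma, adjusted p = 0.811). Lipa had 229.6, 218 and 271 FPKM in knockout-labelled libraries and 247, 257 and 254 FPKM in wild type libraries, a wider spread in the knockout-labelled group. The glycosidase genes Gaa, Gla, Glb1, Gusb and Man2b1, which act on glycogen, glycolipids, glycosaminoglycans and glycoproteins, lay between -0.027 and 0.0093 on the log2 scale. Asah1, which cleaves ceramide, Ppt1, which removes palmitate from proteins, and the acid phosphatase gene Acp2 lay at 0.019, 0.013 and -0.0015.

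Psap had 7934, 7496 and 7674 FPKM in knockout-labelled libraries and 7188, 6376 and 7546 FPKM in wild type libraries. The ranges nearly parted, with the highest wild type library above the lowest knockout-labelled library (log2 fold change 0.13, SE 0.136, limma, adjusted p = 0.771). Grn, which encodes progranulin, averaged 835 ± 33.0 FPKM in knockout-labelled libraries and 789 ± 78.3 FPKM in wild type libraries. Npc2, which hands cholesterol to the membrane protein NPC1, averaged 144 ± 15.3 FPKM in knockout-labelled libraries and 148 ± 10.9 FPKM in wild type libraries.

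Lysosomal membrane protein genes also overlapped between the groups, in all 8 cases, where 17.1% of all genes tested did not overlap. Cd68, macrosialin, was the most abundant, at 1207, 1113 and 1338 FPKM in knockout-labelled libraries and 1289.6, 1337 and 1213 FPKM in wild type libraries. Cd63, a tetraspanin of late endosomes, had 187, 192 and 231 FPKM in knockout-labelled libraries and 192, 261 and 226 FPKM in wild type libraries (log2 fold change -0.15, SE 0.125, limma, adjusted p = 0.707). That difference was -0.042 without WT replicate 2 and -0.26 without WT replicate 1. Npc1, the cholesterol exporter, had 40.9, 41.1 and 35.0 FPKM in knockout-labelled libraries and 45.5, 36.9 and 47.5 FPKM in wild type libraries (log2 fold change -0.14, SE 0.107, limma, adjusted p = 0.674). Leaving out 1 library at a time gave Npc1 values between -0.25 (without WT replicate 2) and -0.068 (without CD22_KO replicate 3). Lamp2, the receptor of chaperone-mediated autophagy, had 86.4, 85.4 and 115 FPKM in knockout-labelled libraries and 94.3, 109.9 and 103 FPKM in wild type libraries, with knockout-labelled library 3 the highest of the 6. Lamp1, the other main membrane glycoprotein, was level at 791 ± 32.3 FPKM in knockout-labelled libraries and 793 ± 18.4 FPKM in wild type libraries. Scarb2, the carrier of glucocerebrosidase, Laptm5 and Mcoln1 had log2 fold changes of -0.039, 0.044 and 0.020.

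Knockout-labelled library 3 differed from the other knockout-labelled libraries across many of these genes. It was the highest of its group in 31 of the 52 genes (59.6%), against 34.6% of all genes tested. The share was 7 of 10 cathepsins, 5 of 6 V0 genes and 2 of 8 V1 genes. Summed FPKM of the cathepsin class was 11370.4, 11293 and 12998 in knockout-labelled libraries and 11501, 12851 and 12665 in wild type libraries. Mitochondrially encoded transcripts were lowest of the knockout-labelled group in that library, at 15.6%, and their part in the cathepsin values was not tested.

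**Figure D4:**
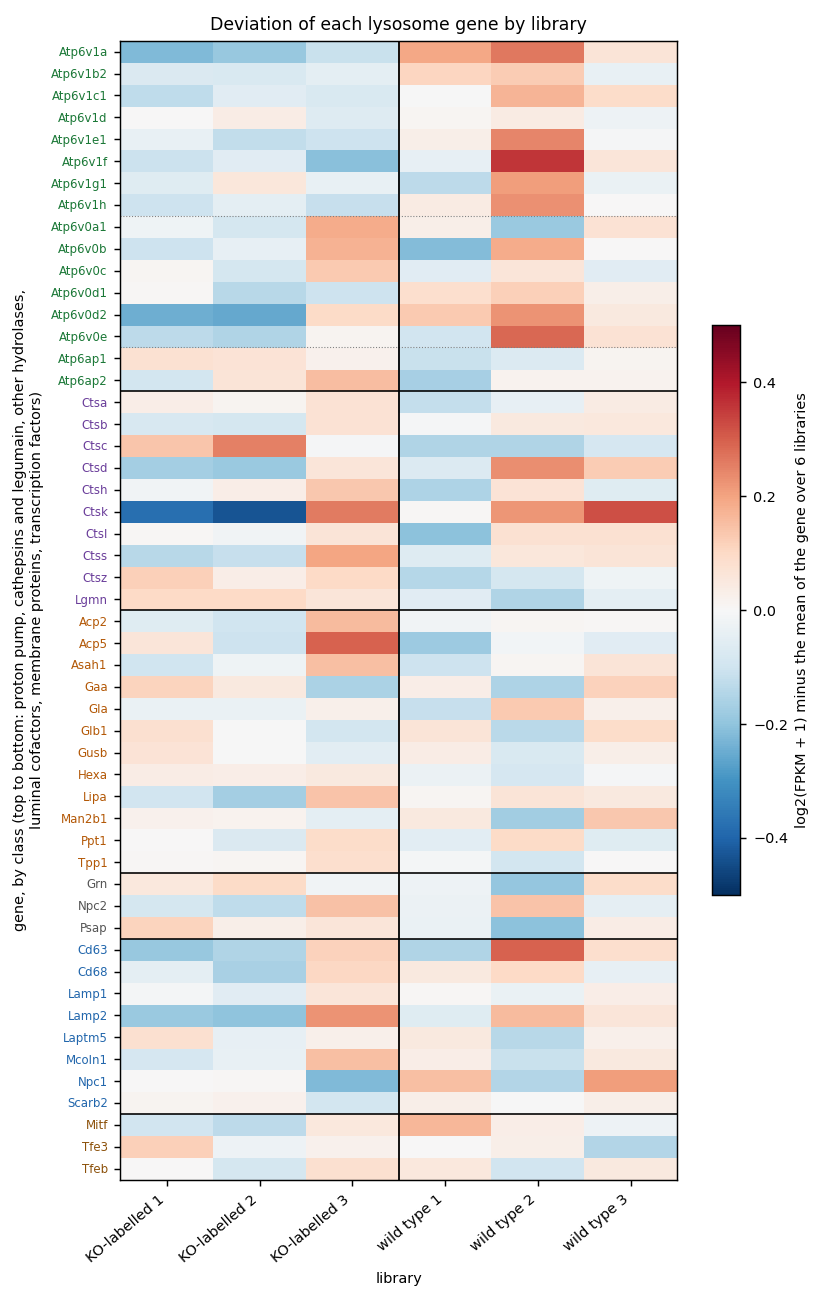
Deviation of each of the 52 genes from its mean over the 6 libraries on the log2(FPKM + 1) scale, with knockout-labelled libraries left of wild type libraries and genes grouped by class. The 8 V1 genes at the top are highest in wild type library 2, and most cathepsin genes are higher in knockout-labelled library 3 than in knockout-labelled libraries 1 and 2.

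The transcription factor genes that govern lysosomal expression were low in abundance and close to level. Mitf had 19.0, 18.5 and 21.2 FPKM in knockout-labelled libraries and 23.0, 20.8 and 20.0 FPKM in wild type libraries (log2 fold change -0.12, SE 0.0843, limma, adjusted p = 0.664). Tfe3 had 18.1, 16.3 and 16.8 FPKM in knockout-labelled libraries and 16.6, 16.9 and 14.9 FPKM in wild type libraries (log2 fold change 0.077, SE 0.0806, limma, adjusted p = 0.780). Tfeb had 7.00, 6.51 and 7.43 FPKM in knockout-labelled libraries and 7.29, 6.46 and 7.25 FPKM in wild type libraries, with a log2 fold change of -0.0035. These proteins are controlled mainly by their location in the cell, which RNA does not show.

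Promoters of the 52 genes were searched for the element these factors bind. RefSeq windows of 300 bases around the transcription start, from GRCm38.p6, were at hand for 43 of the 52 genes, in 55 windows, and not for Asah1, Atp6v0d2, Atp6v1b2, Atp6v1c1, Atp6v1g1, Atp6v1h, Ctsb, Ctsh and Npc1. The letters CACGTG, which read the same on both strands, occurred in 13 of the 43 genes (30.2%) and in 8.09% of all 27025 genes with a window. The longer TCACGTGA, which contains it and also reads the same on both strands, occurred in 7 of the 43 (16.3%) and in 1.12% of all genes. The longest form searched, TCACGTGA with G before it and C after it, occurred in 0 of the 43 and in 0.370% of all genes. A form this rare cannot tell 43 genes from all genes. The 13 genes with CACGTG had a median log2 fold change of -0.0050, 6 above 0 and 7 below, and the 30 without it had a median of 0.0039, 15 above 0 and 15 below. A match is a description of letters and says nothing of binding in these cells.

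The following 200-base stretches, from 170 bases before to 30 bases after the annotated start and written on the strand of the gene, show 6 of these promoters, with CACGTG, or TCACGTGA where it is complete, in capitals. Atp6v1a and Atp6v0d1 are shown as pump genes that were lower without overlap, Lgmn as a protease gene that was higher without overlap, Ctsd as the most abundant cathepsin gene, and Mcoln1 and Lamp1 as membrane protein genes with more than a single copy.
Atp6v1a, chr16:44139230-44139429, minus strand: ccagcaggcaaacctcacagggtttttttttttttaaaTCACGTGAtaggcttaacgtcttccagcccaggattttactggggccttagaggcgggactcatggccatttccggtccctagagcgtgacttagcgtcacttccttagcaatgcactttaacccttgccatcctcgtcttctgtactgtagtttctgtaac
Atp6v0d1, chr8:105566035-105566234, minus strand: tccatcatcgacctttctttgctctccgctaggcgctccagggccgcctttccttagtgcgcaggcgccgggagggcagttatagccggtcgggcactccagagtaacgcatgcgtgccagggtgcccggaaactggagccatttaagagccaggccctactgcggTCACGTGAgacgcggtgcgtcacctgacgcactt
Ctsd, chr7:142387798-142387997, minus strand: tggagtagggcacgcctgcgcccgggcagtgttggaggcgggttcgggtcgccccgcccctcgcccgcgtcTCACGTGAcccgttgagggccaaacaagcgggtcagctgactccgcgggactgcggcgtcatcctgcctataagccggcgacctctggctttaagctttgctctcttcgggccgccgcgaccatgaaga
Lgmn, chr12:102439063-102439262, minus strand: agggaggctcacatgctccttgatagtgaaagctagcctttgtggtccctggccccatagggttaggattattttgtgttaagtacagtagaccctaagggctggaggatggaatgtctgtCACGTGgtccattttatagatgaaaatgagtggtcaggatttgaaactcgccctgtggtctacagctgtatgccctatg
Mcoln1, chr8:3500349-3500548, plus strand: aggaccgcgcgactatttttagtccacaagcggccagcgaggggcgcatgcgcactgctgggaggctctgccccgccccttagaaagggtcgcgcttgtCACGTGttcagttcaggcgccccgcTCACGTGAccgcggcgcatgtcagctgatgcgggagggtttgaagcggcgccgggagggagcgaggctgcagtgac
Lamp1, chr8:13158991-13159190, plus strand: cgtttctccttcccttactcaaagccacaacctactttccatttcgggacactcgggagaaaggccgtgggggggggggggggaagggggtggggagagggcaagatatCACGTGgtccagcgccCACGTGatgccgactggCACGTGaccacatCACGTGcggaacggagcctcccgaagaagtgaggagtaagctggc
The element sits 131 bases before the start in Atp6v1a and spans the start itself in Atp6v0d1. Lamp1 carries 4 copies of CACGTG, the nearest 15 bases before the start. Ctsd has a second copy farther out, 245 bases before the start, beyond the stretch shown. In Lgmn, as in Ctsa, CACGTG was found only in window 2, which lies at a second start of the gene. Genes that carry the element thus include Atp6v1a at -0.35, Lgmn at 0.17 and Lamp1 at -0.0050 on the log2 scale.

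Genes that act with the 52 were also examined. Among 31 other lysosomal hydrolase genes, all tested, limma called 0 and 4 had an unadjusted p below 0.05, beside 11.0% of all genes tested, with a median log2 fold change of 0.018. The 2 with the smallest p follow. Pla2g15, a lysosomal phospholipase, had 90.3, 95.9 and 83.1 FPKM in knockout-labelled libraries and 71.6, 67.7 and 73.3 FPKM in wild type libraries (log2 fold change 0.34, SE 0.083, limma, adjusted p = 0.162). Idua, which degrades glycosaminoglycans, averaged 19.8 ± 0.743 FPKM in knockout-labelled libraries and 16.8 ± 1.21 FPKM in wild type libraries, also without overlap. Of 23 further membrane protein genes tested, 0 were called and 2 had an unadjusted p below 0.05, again beside 11.0% of all genes tested. Slc11a1, the metal transporter of phagosomes, had 65.6, 62.9 and 68.7 FPKM in knockout-labelled libraries and 51.0, 52.9 and 49.4 FPKM in wild type libraries (log2 fold change 0.36, SE 0.0759, limma, adjusted p = 0.0985). Gpnmb, a glycoprotein of loaded lysosomes, averaged 1244 ± 200.1 FPKM in knockout-labelled libraries and 1555 ± 147 FPKM in wild type libraries. Of the KEGG lysosome genes that the deposited table names beyond the 52, 73 were tested, 0 were called and 8 had an unadjusted p below 0.05, a share close to the 11.0% of all genes tested. Of the 73, 9 were higher and 9 lower without overlap, where 6.43% and 10.7% of all genes tested were, and the median log2 fold change was -0.031. The smallest p in that list belonged to Ap4b1, a subunit of the adaptor complex AP-4, at 7.58, 7.83 and 7.02 FPKM in knockout-labelled libraries and 5.65, 5.51 and 5.47 FPKM in wild type libraries (log2 fold change 0.37, SE 0.0741, limma, adjusted p = 0.0750). Slc11a1 had the next smallest.

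Cathepsin inhibitor genes lay below 0 in all 4 cases tested, as did 57.9% of all genes tested, and 0 were called. Serpinb6a had 51.5, 53.3 and 63.3 FPKM in knockout-labelled libraries and 61.4, 76.2 and 63.9 FPKM in wild type libraries, and Cstb, stefin B, averaged 253 ± 15.6 and 299 ± 51.0 FPKM, in knockout-labelled and wild type libraries in that order. The groups overlapped for all 4. Of 2 other cathepsin genes tested, Ctso had a log2 fold change of -0.15 and Ctsf of 0.071, and 0 were called. Of the genes that bring enzymes to the lysosome, 10 were tested, 5 lay above 0 and 5 below, and 0 were called. Sort1, a sorting receptor, averaged 6.75 ± 0.54 FPKM in knockout-labelled libraries and 7.64 ± 0.29 FPKM in wild type libraries, and Igf2r, the large mannose 6-phosphate receptor, 23.3 ± 2.73 and 26.4 ± 3.86 FPKM in the same order.

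Autophagy genes, which feed the lysosome, lay mostly below 0. Limma called 0 of 25 over all genes, while 24 had a negative log2 fold change, 8 an unadjusted p below 0.05 and 11 no overlap, all of these lower in knockout-labelled libraries. The corresponding shares of all genes tested were 57.9%, 6.39% and 10.7%, and the median was -0.14. With quantile normalization 19 of the 25 were negative, and without wild type replicate 1 also 19. Map1lc3a, which encodes an LC3 protein of the autophagosome membrane, had 3.95, 4.56 and 5.25 FPKM in knockout-labelled libraries and 5.96, 7.53 and 6.79 FPKM in wild type libraries (log2 fold change -0.48, SE 0.105, limma, adjusted p = 0.118). Gabarapl1, of the same family, averaged 63.4 ± 1.68 FPKM in knockout-labelled libraries and 77.0 ± 4.86 FPKM in wild type libraries (log2 fold change -0.27). In both genes the groups did not overlap. Map1lc3a was called when the libraries were scaled to the same FPKM sum (adjusted p = 0.0368) and without CD22_KO replicate 3 (adjusted p = 0.0422). Of 19 genes for the nutrient control of TFEB, 0 were called, and 7 had log2 fold changes above 0 and 12 below. The smallest p-values were those of Rragd and Rraga, small GTPases of that pathway. They averaged 1.62 ± 0.12 and 28.0 ± 2.14 FPKM in knockout-labelled libraries and 2.21 ± 0.12 and 33.0 ± 3.97 FPKM in wild type libraries. Rragd lay near the filter of 1 FPKM, and the groups overlapped for Rraga.

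Some of these values can share reads with other genes. The pseudogene Atp6v0c-ps2 had 90.9 ± 3.95 FPKM in knockout-labelled libraries and 90.3 ± 5.52 FPKM in wild type libraries, so the level of Atp6v0c is uncertain, and Cd63-ps had 19.5 ± 1.59 and 22.7 ± 3.63 FPKM in the same order. In GENCODE, exons of 16 of the 52 genes overlap those of another gene, mostly on the opposite strand. The neighbours with the highest FPKM were Pltp at Ctsa, averaging 419 FPKM over 6 libraries, and Cap1 at Ppt1, averaging 149 FPKM. The libraries kept strand, per the labels' protocols, and whether the counting used it was not given in the sources used here.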

How the data were processed

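RNA was prepared as poly(A)-selected, strand-specific paired-end libraries, per the labels' protocols, in 6 samples, 3 per genotype. The authors deposited 1 table with FPKM per gene and library, and no counts. The same table holds the authors' own fold (a ratio), its log2, and a p-value and q-value per gene, per the file headers. The submitters' processing notes name HISAT2, StringTie, edgeR, DESeq2, cutadapt and FastQC without saying which step each did, and the genome build was not given in the sources used here. Depth is unknown, so no counting intervals were computed.

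The 52 genes and all lists were chosen with earlier results of these data known, so lists carry no test of their own and are described by counts and medians beside all genes tested. Values of log2(FPKM + 1) were fitted without covariates in limma 3.58.1 (R 4.3.3), using robust moderation and a trend of the variance on the mean, for the 10777 genes that reached 1 FPKM in 3 or more libraries. Tests were 2-sided, adjusted by Benjamini-Hochberg over all genes tested, and called at an adjusted p below 0.05. A fold change on this scale understates the change of low genes. The planned count test did not apply to FPKM. The labels give every library a different batch code, which leaves no fit with batch as a term. Genes chosen for description are, in each class, the 4 with the smallest p and the most abundant, then Ctsk, Acp5, the Atp6v0d pair and the transcription factors, and the 2 with the smallest p of each related list. Some of them are given as group means or log2 fold changes only. Mmp9, Ctss, Ctsb, Lamp1 and pump genes outside this rule were chosen after their values were seen. Positions come from GENCODE M21 (GRCm38) by gene ID. Alternatives were a pseudocount of 0.1, no filter or an FPKM of at least 5, other scalings, no robust moderation, a replicate block, and libraries left out.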

Additional observations from a re-analysis of the deposited data

How the results depend on the processing

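Of the 52 genes, 0 were called under every alternative run except without CD22_KO replicate 3, where Ctsk was, so that leaving out 1 library gave 0 to 1. The count over all genes, 44, became 3 with no filter on low values, 11 without wild type libraries 1 and 2 together (a fit in which the lone wild type library is assumed to vary like the other group) and 28 to 92 with 1 library left out, the lowest without CD22_KO replicate 2 and the highest without CD22_KO replicate 3. Autophagy genes called went to 1 with equal FPKM sums, and 0 to 1 with 1 library left out. Without wild type libraries 1 and 2 the median log2 fold change was -0.065 for pump genes and -0.031 for cathepsins, and with 1 library left out it was -0.18 to -0.088 and -0.0099 to 0.088. With equal FPKM sums, which moved the median of all genes to -0.079, it was -0.058 for other hydrolases and -0.12 for membrane proteins.

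For the 24 of the 52 genes chosen by rule for description, 11 of 384 alternative values changed sign, all in genes whose log2 fold change lay within 0.1 of 0. Without wild type libraries 1 and 2 the log2 fold change was -0.049 for Grn, 0.021 for Npc2 and 0.0036 for Cd68. For Tfeb it was 0.015 with median centring, 0.017 with quantile normalization and 0.0051 with equal non-mitochondrial sums. With 1 library left out, Npc2 ranged from -0.13 to 0.013 and Tfeb from -0.053 to 0.039, while Atp6v1f ranged from -0.33 to -0.13, Ctsd from -0.28 to -0.13, Lamp2 from -0.25 to -0.035, Lipa from -0.17 to -0.017, Cd68 from -0.14 to -0.0091 and Psap from 0.064 to 0.19. The causes were not tested. A replicate block gave 63 calls over all genes and 0 of the 52. Deviations of same-numbered libraries correlated at 0.056, -0.034 and 0.070. Libraries numbered 1 and 3 correlated best with their own number, and those numbered 2 did not. With 3 libraries per group, such small correlations cannot decide whether replicate numbers mark a pairing. Unknown depth leaves counting error unmeasured.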

Other observations

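Within-group spread was small for most of the 52 genes. The coefficient of variation had a median of 5.73% in knockout-labelled libraries and 6.85% in wild type libraries, against 7.39% and 8.66% over all genes tested. Hexa was the steadiest in knockout-labelled libraries at 0.585%, and Ctsk the least steady there at 29.3%. In wild type libraries Acp2 was the steadiest at 1.09% and Cd63 the least steady at 15.3%.

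The 52 genes lie on 20 chromosomes, with 6 on chromosome 8 and 5 each on chromosomes 4 and X, so most are not neighbours.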
